A study of Planococcus citri with 8 samples.

Results

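The contractile apparatus of muscle and the actin cytoskeleton were followed through 41 gene models of the citrus mealybug *Planococcus citri*, in females that had mated and females that had not. The members were the gene models of the annotated expression table whose InterPro entry (a protein domain or family assigned from sequence) was troponin, myosin head, myosin tail, tropomyosin or actin family, or whose InterPro description held the word troponin, tropomyosin or myosin. They were 41 of the 17669 gene models of that table, of which 11584 had an InterPro entry. The full count table holds 40620 gene models. The members comprised 5 troponin, 6 tropomyosin, 6 myosin tail, 7 myosin head, 4 other myosin and 13 actin family models, spread over 36 scaffolds of the Pcitri.v1 genome. The rule itself uses no measured level, but it was written with earlier results of these data known.

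Polyadenylated RNA was sequenced from 4 pools of virgin females (replicates 2, 3, 5 and 6) and 4 pools of mated females (replicates 8, 9, 10 and 11), each of approximately 150 whole adult insects or approximately 100 mg. All came from 1 laboratory colony reared on lemons in the dark. Mated females were taken from the stock colony once egg sacs were present, and virgin females from separate lemons from which male cocoons had been picked off by hand. The groups thus differed in mating, in egg laying and in how they were kept, and these cannot be told apart. The pools are described as biological replicates, and the p-values below set the difference between groups against the spread between these pools. Library totals were 29667566 to 50301861 uniquely mapped read pairs, and the members had 38 to 209191 of them per library.

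Muscle contracts when myosin motors, bundled by their tails into thick filaments, pull on thin filaments of actin. Tropomyosin lies along the thin filament, and the troponin complex moves it aside when calcium is released into the cell, which lets the motors bind. Actin, tropomyosin and myosin also have forms outside muscle, where they shape cells, carry cargo and divide cells, whereas troponin is a component of striated muscle. Actin-related proteins of the same family take part in nucleating filaments, in dynein transport and in chromatin remodelling. The InterPro entries do not separate muscle forms from the others, so by name only the troponin models mark muscle. A gene model is given 1 entry, so a model with a myosin head need not lack a tail.

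Troponin and most myosin tail models were higher in virgin females, myosin head models split between both directions, and most actin family models did not pass the test. Of the 41 members, 20 (48.8%) were higher and 7 (17.1%) lower in virgin females in edgeR's quasi-likelihood test at a Benjamini-Hochberg adjusted p under 0.05, and 14 did not pass. Among all 21179 genes tested, 26.4% were higher and 21.3% lower, and among the 11578 tested genes with an InterPro entry 28.3% were higher and 20.5% lower. The counts of each group below are to be read against these shares. The median log2 fold change of virgin over mated females was 0.21 over the members, with a range of -3.87 to 2.82, against 0.03 over all genes tested. The 4 virgin libraries lay wholly above the 4 mated ones in 15 members and wholly below in 7, where 22.1% and 21.1% of all genes tested did so, as did 23.6% and 19.9% of those with an InterPro entry. All 41 members passed the filter on low counts and none passed through 1 group alone, the lowest level being 1.04 CPM (counts scaled to a common library size) after scaling by the trimmed mean of M values (TMM). In whole bodies, fewer cells of a type and less RNA per cell cannot be told apart.

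**Figure D1:**
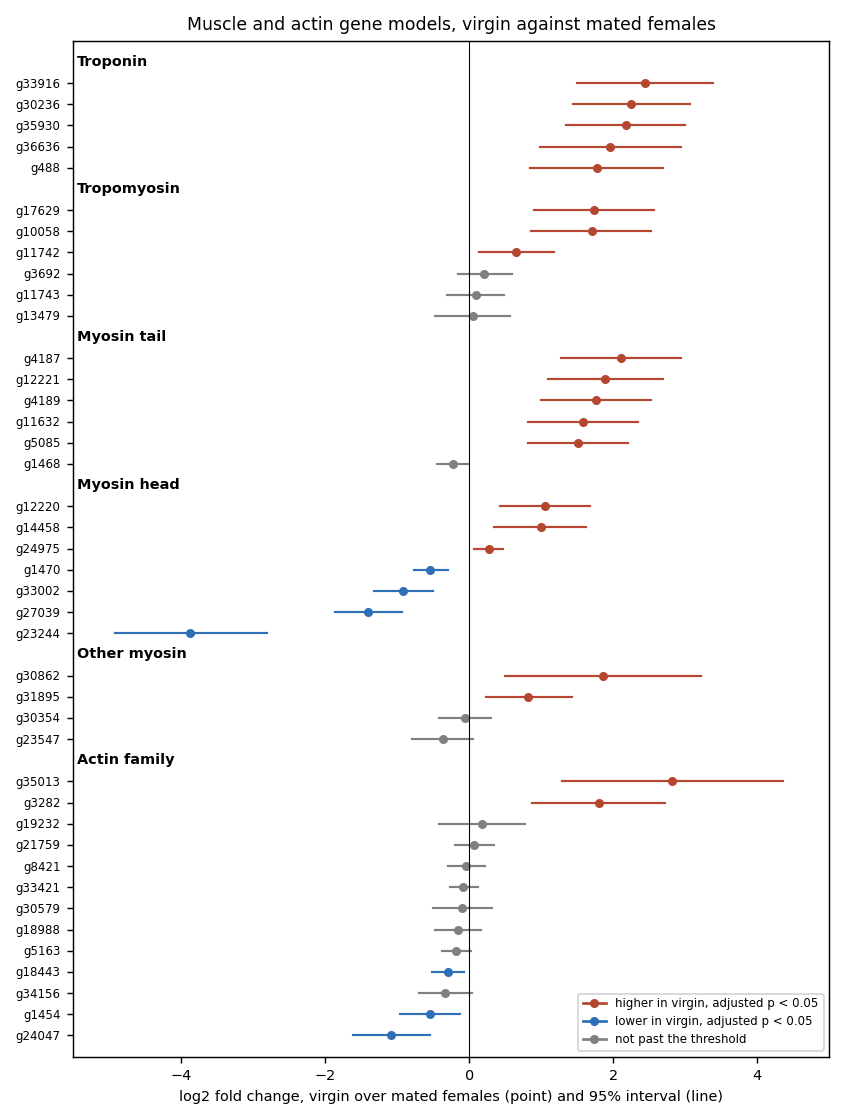
Log2 fold change of virgin over mated females for each of the 41 gene models (points) with its 95% interval (lines), grouped by InterPro family. All 5 troponin models lie between 1.77 and 2.44, the 7 myosin head models run from -3.87 to 1.05, and 8 of 13 actin family models lie close to 0 and do not pass the test.

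Virgin replicate 2 stood apart from the other virgin libraries, and this touches every result below. It was the lowest virgin library in 20 of the 20 members called higher, and in 78.7% of all genes called higher. On the log2 scale it lay, at the median, 40.8% of the way from the mated mean to the mean of the other virgin libraries in the members called higher, against 50.5% over all genes called higher. With virgin replicate 2 left out, 21 members were higher and 10 lower, and each of the 27 members called with all libraries kept its call. Calls also rose over all genes in that fit, with 6891 higher and 6724 lower of 21941 tested, against 5595 and 4514 of 21179 with all libraries. Of 42 models with yolk and lipid transport entries, 38 have the lipase/vitellogenin entry, which does not tell yolk proteins from lipases. The summed level of the 42 was 25056 CPM in virgin replicate 2. This lay between the 2985 to 6363 CPM of the other virgin libraries and the 64492 to 136760.0 CPM of the mated ones. For 43 insect cuticle protein models the sum in virgin replicate 2 was 562 CPM. This was below the 2693 to 10427 CPM of the other virgin libraries and the 789 to 1399.9 CPM of the mated ones.

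Troponin had the narrowest range of log2 fold changes of the 6 groups, 1.77 to 2.44. The entry covers the inhibitory and tropomyosin-binding subunits of the calcium switch, and the files do not say which subunit each model is. All 5 models were higher in virgin females, with a median log2 fold change of 2.17, and in all 5 the virgin libraries lay above the mated ones. For g30236, on scaffold PCITRI_00455, the levels were 417, 1122, 1253 and 1046 CPM in virgin replicates 2, 3, 5 and 6, and 181, 267, 138 and 221 CPM in mated replicates 8, 9, 10 and 11. Virgin replicate 2 was thus the low library on 1 side and mated replicate 10 on the other. The means were 959.6 ± 372 CPM and 202 ± 55.0 CPM (SD, n = 4 each), a log2 fold change of 2.25 ± 0.36 (SE) with an edgeR adjusted p of 0.00227.

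The other troponin models showed the same order of libraries on the virgin side. Levels of g33916 were 105, 321, 375 and 303 CPM in the virgin libraries and 52.4, 67.5, 29.1 and 53.9 CPM in the mated ones, in the replicate order above. It had the largest log2 fold change of the group, 2.44 ± 0.41 (edgeR adjusted p = 0.00277). For g35930 the virgin libraries had 121, 353, 361 and 324 CPM and the mated libraries 71.0, 79.5, 41.4 and 65.0 CPM, a log2 fold change of 2.17 ± 0.36 (edgeR adjusted p = 0.00259). In both models virgin replicate 2 was above the highest mated library but nearer to it than to the other virgin libraries. The margin was narrowest in g36636, where virgin replicate 2 had 46.3 CPM and the highest mated library 44.6 CPM, and in g488, where these were 30.4 and 28.3 CPM. The other 3 virgin libraries had 160.4 to 209.5 CPM of g36636 and 84.9 to 127 CPM of g488. Log2 fold changes were 1.96 ± 0.43 for g36636 and 1.77 ± 0.40 for g488 (edgeR adjusted p = 0.00697 and 0.00838). The 5 models lie on 5 different scaffolds.

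Tropomyosin, the coiled-coil protein on which troponin sits, divided into models that moved with troponin and models that did not. Of the 6 models, 3 were higher in virgin females and 3 did not pass, with a median log2 fold change of 0.43. Levels of g17629 were 159, 439.6, 527 and 457 CPM in the virgin libraries and 127, 150.3, 78.7 and 121 CPM in the mated ones. Levels of g10058 were 65.5, 186, 207 and 181 CPM in the virgin libraries and 50.9, 65.2, 30.9 and 50.5 CPM in the mated ones. Both separated the groups, by a small margin at virgin replicate 2, with log2 fold changes of 1.73 ± 0.36 and 1.70 ± 0.37 (edgeR adjusted p = 0.00605 and 0.00683).

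The remaining tropomyosin models had smaller differences. In g11742 the virgin libraries had 68.6, 134, 155 and 124 CPM and the mated libraries 83.8, 71.7, 78.2 and 72.1 CPM. Virgin replicate 2 lay below every mated library while the other virgin libraries lay above all of them. The log2 fold change was 0.65 ± 0.22 (edgeR adjusted p = 0.0408). The call was lost when any 1 library other than virgin replicate 2 was left out, at adjusted p of 0.0627 to 0.111. Its neighbour g11743, the next gene model on scaffold PCITRI_03010, had 71.3 to 126 CPM in virgin and 85.4 to 106 CPM in mated libraries. Its log2 fold change was 0.09 with a 95% interval of -0.31 to 0.48. Those of g13479 and g3692 were 0.05 (-0.48 to 0.57) and 0.21 (-0.16 to 0.59). Without virgin replicate 2, g3692 was called higher (edgeR adjusted p = 0.00674), at a log2 fold change of 0.35. In all 11 troponin and tropomyosin models virgin replicate 2 was the lowest virgin library.

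**Figure D2:**
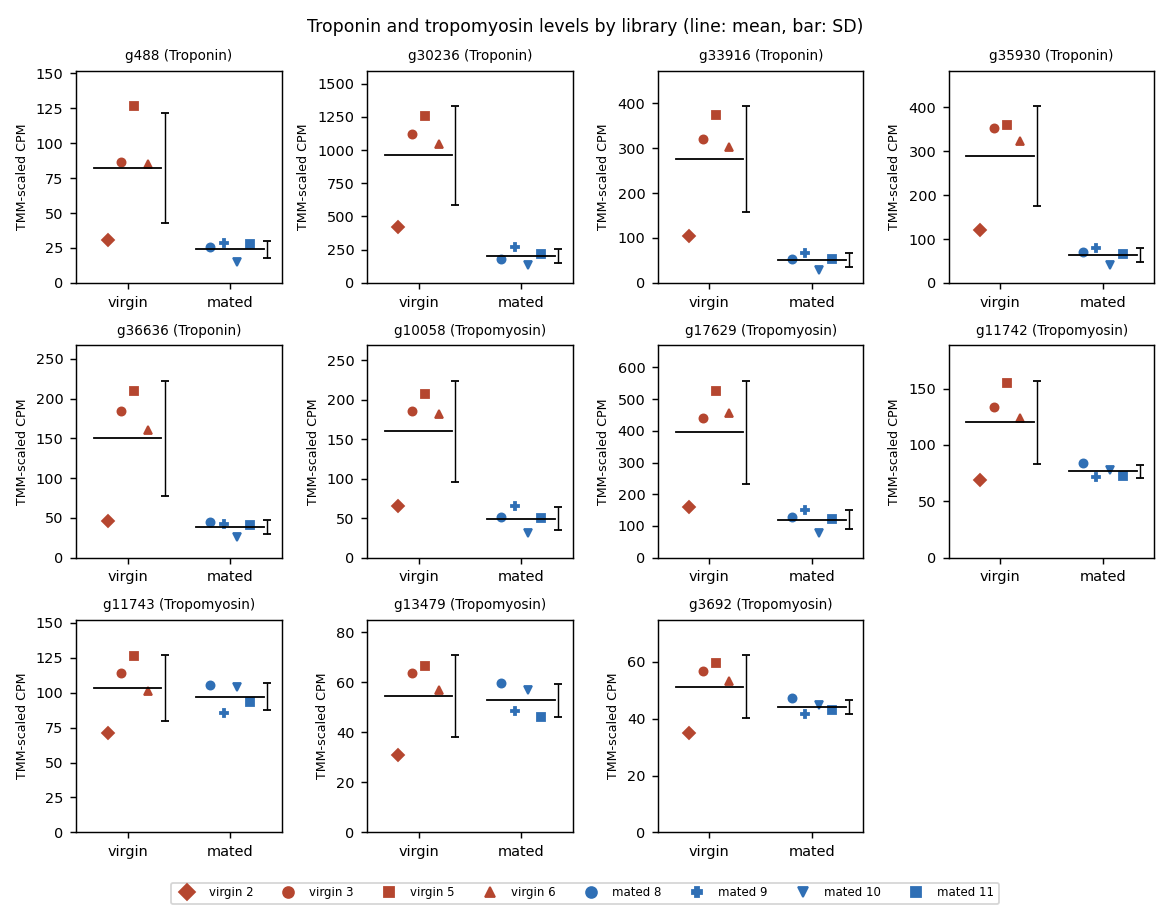
TMM-scaled CPM of the 5 troponin and 6 tropomyosin models in each library (points, 1 marker per replicate), with the mean (line) and SD (bar) of the 4 libraries of each group. Virgin replicate 2 (diamond) is the lowest virgin library in all 11 panels and sits near the mated libraries in g36636 and g488.

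The myosin tail, the coiled coil that packs the motor into thick filaments and that paramyosin also carries, was higher in virgin females in 5 of 6 models. Log2 fold changes of these 5 were 1.51 to 2.11, and the virgin libraries lay above the mated ones in each. The most abundant by counts was g12221, on scaffold PCITRI_03171, with 2182, 4725, 4902 and 4898 CPM in the virgin libraries and 932, 1672, 696 and 1208 CPM in the mated ones. The 3 virgin libraries other than replicate 2 were close to each other, whereas the mated libraries were spread more widely, with replicate 9 highest and replicate 10 lowest. Means were 4177 ± 1332 CPM and 1127 ± 419 CPM (SD, n = 4 each), a log2 fold change of 1.89 ± 0.35 with an edgeR adjusted p of 0.0037.

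On scaffold PCITRI_01557, g4187 and g4189 lie with 1 gene model between them, and both were higher in virgin females. Levels of g4187 were 353, 834, 1001 and 819.7 CPM in the virgin libraries and 160.0, 254, 107 and 176 CPM in the mated ones. Its log2 fold change of 2.11 ± 0.36 (edgeR adjusted p = 0.00299) was the largest of the group. That of g4189 was 1.76 ± 0.33 (edgeR adjusted p = 0.00413), from 348 ± 113 CPM and 103 ± 35.5 CPM (SD, n = 4 each). For g5085 the virgin libraries had 450.4, 883, 944 and 929 CPM and the mated libraries 236, 394, 183 and 314 CPM. Virgin replicate 2 was again low and mated replicate 9 the highest mated library. The log2 fold change was the smallest of the 5, at 1.51 ± 0.31 (edgeR adjusted p = 0.00527). In g11632 the means were 307 ± 92.0 CPM and 103 ± 38.6 CPM (SD, n = 4 each), a log2 fold change of 1.58 ± 0.33.

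The sixth myosin tail model, g1468, did not share this pattern. It had 128, 120.1, 130.1 and 138 CPM in the virgin libraries and 169.6, 138, 153 and 145 CPM in the mated ones, with virgin replicate 6 just above mated replicate 9. Its log2 fold change of -0.23 had a 95% interval of -0.45 to -0.01 and an edgeR adjusted p of 0.0762.

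The myosin head, the motor domain that hydrolyses ATP and binds actin, is present in the myosins of muscle and in those that move cargo or membranes in other cells. All 7 models passed the test, 3 higher and 4 lower in virgin females, with a median log2 fold change of -0.54. Among the 4 that were lower, g27039 on scaffold PCITRI_00288 had 738, 538, 457 and 455 CPM in the virgin libraries and 1552, 1159.8, 1738 and 1316 CPM in the mated ones. The groups did not overlap, and virgin replicate 2 was the virgin library closest to the mated ones. Means were 547 ± 133 CPM and 1441 ± 255 CPM (SD, n = 4 each), a log2 fold change of -1.40 ± 0.20 with an edgeR adjusted p of 0.00181.

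The largest difference of any member was that of g23244, on scaffold PCITRI_00124. Its levels were 3.01, 2.39, 9.05 and 3.63 CPM in the virgin libraries and 63.6, 46.3, 91.2 and 63.7 CPM in the mated ones. Mated females thus had 14.7 times the mean level of virgin females, and the highest virgin library, replicate 5, was far below the lowest mated one. The log2 fold change was -3.87 ± 0.46 (edgeR adjusted p = 0.00118), and -4.47 with virgin replicate 5 left out. The next gene model on that scaffold, g23245, which has no InterPro description, had a log2 fold change of -4.41 (edgeR adjusted p = 0.000958), and the model on the other side, g23243, an amino acid transporter, one of 2.16 (edgeR adjusted p = 0.0148).

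Smaller decreases in virgin females were measured for g33002 and g1470. Levels of g33002 were 16.7, 13.1, 9.85 and 10.5 CPM in the virgin libraries and 22.6 to 24.7 CPM in the mated ones, a log2 fold change of -0.92 ± 0.18 (edgeR adjusted p = 0.00436). For g1470 they were 69.6 to 76.9 CPM and 94.1 to 121 CPM, a log2 fold change of -0.54 ± 0.10 (edgeR adjusted p = 0.00419). Neither model had overlapping groups. On scaffold PCITRI_00027, g1470 and the tail model g1468 flank g1469, whose entry is the IQ motif, the segment to which myosin light chains and calmodulin bind, and g1469 was also lower in virgin females (log2 fold change of -0.61, edgeR adjusted p = 0.0045).

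The 3 myosin head models that were higher in virgin females had log2 fold changes of 0.27 to 1.05, below those of the 5 tail models. Levels of g12220, which lies next to the tail model g12221, were 24.9, 37.0, 31.9 and 40.2 CPM in the virgin libraries and 12.8, 24.5, 10.6 and 17.0 CPM in the mated ones. The groups were separated only by the small gap between virgin replicate 2 and mated replicate 9. Its log2 fold change was 1.05 ± 0.27 (edgeR adjusted p = 0.0147). For g14458 the virgin libraries had 143, 235, 201 and 239.5 CPM and the mated libraries 84.2, 153, 64.9 and 111 CPM, so that mated replicate 9 exceeded virgin replicate 2. The log2 fold change was 0.99 ± 0.28 (edgeR adjusted p = 0.0195), and the call was lost without virgin replicate 3, virgin replicate 6 or mated replicate 8, at adjusted p of 0.0507, 0.0503 and 0.0517. In g24975 it was 0.27 ± 0.09 (edgeR adjusted p = 0.0369), from 64.4 to 74.6 CPM in virgin and 54.3 to 61.6 CPM in mated libraries. With virgin replicate 3, virgin replicate 6 or mated replicate 8 left out, 1 myosin head model remained higher, g12220. The call of g24975 was lost without any 1 library other than virgin replicate 2, at adjusted p of 0.0595 to 0.113.

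**Figure D3:**
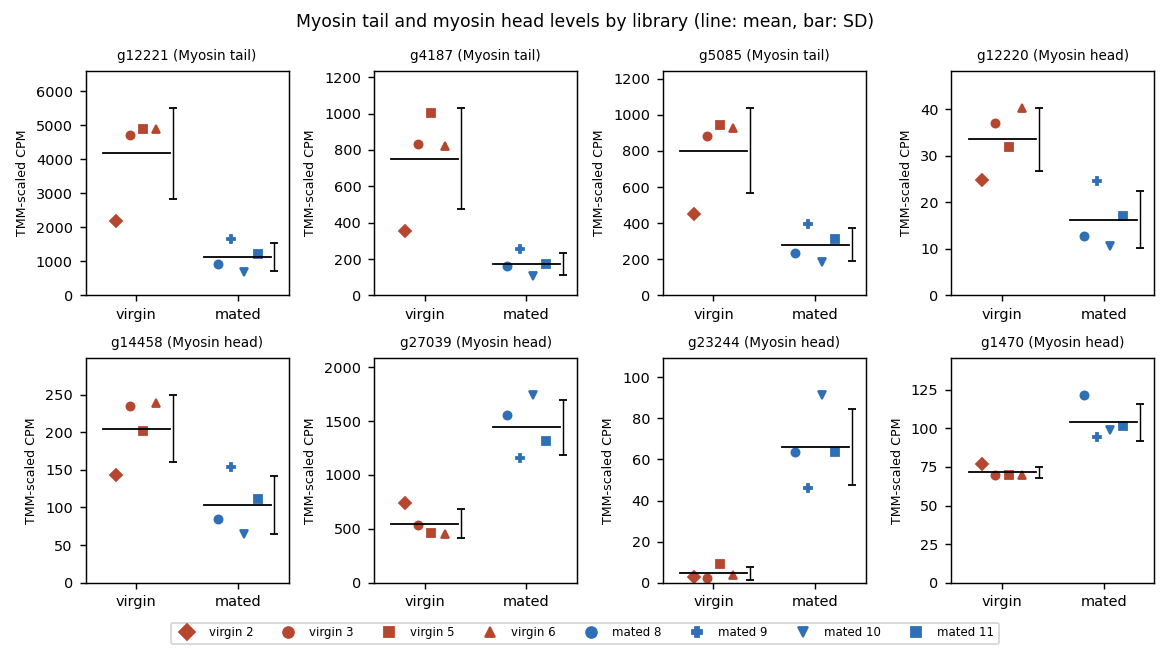
TMM-scaled CPM of 3 myosin tail and 5 myosin head models in each library (points), with the mean (line) and SD (bar) of the 4 libraries of each group. The tail models and g12220 are higher in virgin females, whereas g27039, g23244 and g1470 are higher in mated females without overlap.

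Of the 4 other myosin models, 2 were higher in virgin females and 2 did not pass, and in none (0) were the groups separate. Both that passed carry the SH3-like domain found at the N-terminus of myosin heavy chains. Levels of g30862 were 17.4, 42.0, 48.5 and 56.8 CPM in the virgin libraries and 4.53, 24.1, 4.70 and 12.2 CPM in the mated ones. Mated replicate 9 lay above virgin replicate 2, and the log2 fold change of 1.85 ± 0.60 (edgeR adjusted p = 0.0326) became 2.51 without mated replicate 9. It lost its call without any 1 library other than virgin replicate 2 and mated replicate 9, at adjusted p of 0.0638 to 0.0773. For g31895 the virgin libraries had 51.8, 91.8, 131 and 106 CPM and the mated libraries 65.9, 48.7, 53.7 and 46.9 CPM, a log2 fold change of 0.82 ± 0.26 (edgeR adjusted p = 0.0309). Its call was lost without any 1 library other than virgin replicate 2 and mated replicate 8, at adjusted p of 0.0594 to 0.0862. The model with a class I myosin tail homology entry, g30354, had a log2 fold change of -0.06 (95% interval -0.42 to 0.30). The myosin-binding model g23547 had one of -0.37 (-0.79 to 0.05), and was called lower without virgin replicate 2 at -0.57 (edgeR adjusted p = 0.00506).

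In the actin family, the filament protein itself and its relatives, 2 of 13 models (15.4%) were higher and 3 (23.1%) lower in virgin females. Of all genes tested, 26.4% were higher and 21.3% lower. The other 8 models did not pass, and the median log2 fold change of the 13 was -0.10. With virgin replicate 2 left out, 5 of the 13 were lower, as were 6724 of all 21941 genes tested. Without virgin replicate 3, virgin replicate 6, mated replicate 10 or mated replicate 11, 1 was lower. In those fits 3438 to 3593 of all genes tested were lower, against 4514 with all libraries. Reads that fit more than 1 place were not counted, so models of near-identical actins may be undercounted and their levels are uncertain. The 3 models with the highest counts went in different directions. Levels of g3282, on scaffold PCITRI_01437, were 2270.4, 4901, 5396 and 5063 CPM in the virgin libraries and 650.4, 2011, 923 and 1492 CPM in the mated ones. All virgin libraries exceeded all mated ones, with virgin replicate 2 and mated replicate 9 the nearest. Means were 4408 ± 1439.6 CPM and 1269 ± 606 CPM (SD, n = 4 each), a log2 fold change of 1.80 ± 0.41 with an edgeR adjusted p of 0.00809.

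Levels of g35013, on scaffold PCITRI_00792, were 521, 2546, 4304 and 3118 CPM in the virgin libraries and 338, 649, 136 and 363 CPM in the mated ones. Its log2 fold change of 2.82 ± 0.67 (edgeR adjusted p = 0.00992) was the largest increase of any member, with a wide 95% interval of 1.29 to 4.35, and virgin replicate 2 lay below mated replicate 9. In contrast, g1454, on scaffold PCITRI_00027, had 3486, 2237, 3163 and 2218 CPM in the virgin libraries and 4281, 4052, 3997 and 3874 CPM in the mated ones. The mated libraries were close together and all above the virgin ones. The log2 fold change was -0.55 ± 0.18 (edgeR adjusted p = 0.0363). This call was lost without any 1 library other than virgin replicates 2 and 5, at adjusted p of 0.0659 to 0.101.

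The other actin family models had lower counts. Levels of g24047 were 22.9, 34.6, 37.6 and 44.3 CPM in the virgin libraries and 76.8, 58.0, 97.1 and 62.2 CPM in the mated ones, a log2 fold change of -1.08 ± 0.23 (edgeR adjusted p = 0.0068) without overlap. Here virgin replicate 2 was the virgin library farthest from the mated ones. For g18443 the levels were 53.3 to 65.0 CPM and 69.7 to 81.4 CPM, a log2 fold change of -0.30 ± 0.10 (edgeR adjusted p = 0.0372). Its call was lost without virgin replicate 3, virgin replicate 6, mated replicate 10 or mated replicate 11, at adjusted p of 0.0862, 0.102, 0.0718 and 0.101. The 8 models that did not pass had log2 fold changes of -0.33 to 0.18 and edgeR adjusted p of 0.127 to 0.795. Among them, g21759 had 87.9 to 124 CPM in virgin and 92.7 to 108 CPM in mated libraries. Its log2 fold change was 0.07 with a 95% interval of -0.20 to 0.35.

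**Figure D4:**
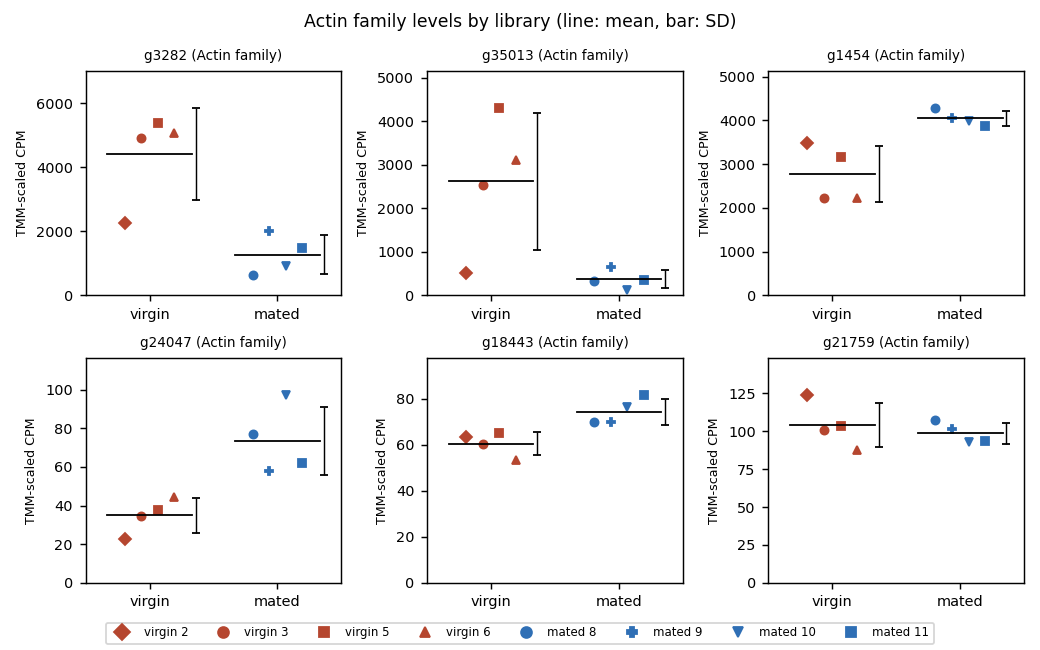
TMM-scaled CPM of 6 actin family models in each library (points), with the mean (line) and SD (bar) of the 4 libraries of each group. The models g3282 and g35013 are higher in virgin females, g3282 without overlap and g35013 with virgin replicate 2 below mated replicate 9. The models g1454, g24047 and g18443 are lower without overlap, and g21759 has overlapping groups.

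Ratios of counts within a library do not depend on the scaling between libraries, and the ratios given here were chosen after the values were seen, so they are descriptions with no test. The count of g3282 relative to g1454 was 0.651, 2.19, 1.71 and 2.28 in the virgin libraries and 0.152, 0.496, 0.231 and 0.385 in the mated ones. The first actin thus had more reads than the second in 3 virgin libraries and fewer in all others. The count of the myosin head model g27039 relative to g14458 was 1.90 to 5.15 in virgin and 7.57 to 26.8 in mated females. For neighbours on 1 scaffold, the ratio of g12220 to g12221 was 0.0065 to 0.0114 in virgin and 0.0137 to 0.0152 in mated females, and that of g4189 to g4187 was 0.429 to 0.511 and 0.570 to 0.608. The ratio of g11743 to g11742 was 0.815 to 1.04 and 1.19 to 1.34, and that of g1470 to g1468 was 0.507 to 0.603 and 0.644 to 0.715. In these 4 pairs the ratio separated the groups although both models of a pair lie side by side or 1 model apart.

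Some members on different scaffolds kept a nearly fixed ratio across all 8 libraries. Among the 190 pairs of the 20 members called higher, the tightest was the tropomyosin pair g10058 and g17629, whose ratio lay between 0.393 and 0.434, a span of 1.10-fold. Next was the myosin head pair g12220 and g14458, at 0.152 to 0.174 or 1.14-fold. The tail models g4189 and g11632 spanned 1.23-fold, and troponin g30236 with the tail model g4187 spanned 1.28-fold. The median span over the pairs was 2.71-fold, and the largest was 28.0-fold, for g35013 and g24975. All 20 members were called higher from these same libraries, so part of the likeness between them comes with that choice. Pairs of other genes called higher were not compared. Whether any of the pairs named here are pieces of 1 gene was not tested.

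The members together took a larger share of the reads of virgin than of mated females. This share was 1.32%, 2.24%, 2.48% and 2.26% in the virgin libraries and 1.12%, 1.25%, 0.942% and 1.07% in the mated ones, with virgin replicate 2 just above mated replicate 9. Splitting the members by call uses these same libraries, so the direction of the shares of the called sets follows from the calls. The 20 members called higher held 0.770%, 1.85%, 2.02% and 1.89% in the virgin libraries and 0.358%, 0.623%, 0.267% and 0.452% in the mated ones. The 7 members called lower held 0.456%, 0.304%, 0.367% and 0.287% in the virgin libraries and 0.657%, 0.539%, 0.585% and 0.536% in the mated ones. The 14 members that did not pass held 0.0856% to 0.0948% in virgin and 0.0870% to 0.109% in mated females. Mated libraries differed among themselves as well: mated replicate 9 was the highest mated library in 17 of the 20 members called higher (49.4% of all genes called higher) and mated replicate 10 the lowest in 15 of the 20 (49.7%).

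**Figure D5:**
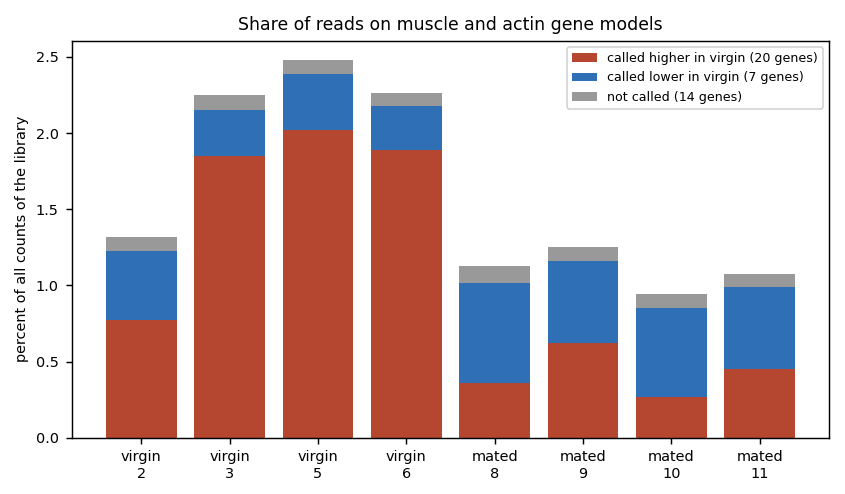
Percent of all counts of each library that fell on the 41 members, stacked by whether a model was called higher in virgin females, called lower or not called. The calls were made on these same libraries. The total is 2.24% to 2.48% in virgin replicates 3, 5 and 6, 1.32% in virgin replicate 2 and 0.942% to 1.25% in the mated libraries.

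Other genes that act with these proteins were counted from lists of InterPro entries, and their counts are read against the 28.3% higher and 20.5% lower of the tested genes with an InterPro entry. Of the 2 calcium release models, 1 was higher in virgin females, the ryanodine receptor model g74, the channel that releases calcium from the sarcoplasmic reticulum. Its levels were 77.9, 171, 162 and 198 CPM in the virgin libraries and 47.5, 99.0, 39.9 and 70.8 CPM in the mated ones, with mated replicate 9 above virgin replicate 2, and its log2 fold change was 1.24 ± 0.36 (edgeR adjusted p = 0.0212). Of 47 models with EF-hand entries, the calcium-binding fold of troponin C, calmodulin and many other proteins, 16 (34.0%) were higher and 9 (19.1%) lower, shares close to that background. Their median log2 fold change was 0.17, against 0.05 over the genes with an entry.

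A further list held 90 models with entries found in proteins that cross-link actin or attach it to membranes and to the cell surface. Of these, 35 (38.9%) were lower in virgin females and 17 (18.9%) higher, beside 20.5% and 28.3% of the tested genes with an entry. The median log2 fold change of the list was -0.24. Its largest entry was the LIM-type zinc finger, with 24 models, 6 higher and 9 lower. An entry of this kind does not by itself show that a protein binds actin. The entry for the N-terminal F0 domain of talin, a protein that links integrins to actin, was given to 2 models. Of these, g8118 had a log2 fold change of -1.37 ± 0.17 (edgeR adjusted p = 0.00125). The other was not called, at -0.22 (edgeR adjusted p = 0.127). The calponin homology model g4115 had a log2 fold change of -1.14 ± 0.13 (edgeR adjusted p = 0.00118). Among those that were higher, the LIM-type zinc finger models g21566 and g21559 had log2 fold changes of 2.44 ± 0.23 and 1.60 ± 0.17 (edgeR adjusted p = 0.000888 and 0.000995). Of 39 models for filament turnover, 5 (12.8%) were higher and 8 (20.5%) lower, the latter at the background share, with a median of -0.12. The formin FH2 domain, which nucleates and elongates actin filaments, accounted for 4 of the 5, with 4 of its 6 models higher, among them g34108 at 0.31 ± 0.09 (edgeR adjusted p = 0.0187). Of the 4 models with the formin GTPase-binding domain, the regulatory part of these proteins, 2 were lower and 0 higher, among them g1706 at -0.58 ± 0.10 (edgeR adjusted p = 0.00345). The WH1/EVH1 model g5161 was lower, at -1.43 ± 0.29 (edgeR adjusted p = 0.00523). Of 66 models for microtubules and their motors, 8 (12.1%) were higher and 17 (25.8%) lower, with a median of -0.17.

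Whole bodies hold many tissues, and markers of other tissues were counted in the same way, beside the same 28.3% higher and 20.5% lower. Of 43 cuticle protein models tested, 24 (55.8%) were higher and 6 (14.0%) lower in virgin females. The virgin libraries lay wholly above the mated ones in 5 of the 43 and wholly below in 6, and the groups overlapped in 32. Their summed level was 562 to 10427 CPM in virgin and 789 to 1399.9 CPM in mated females. Of 42 yolk and lipid transport models, 12 (28.6%) were higher and 7 (16.7%) lower, shares close to the background. Their summed level differed, at 2985 to 25056 CPM and 64492 to 136760.0 CPM. Most of them, 38, have the lipase/vitellogenin entry, so the list is not one of yolk proteins alone. Of 40 homeobox models, which include regulators of embryonic patterning, 5 (12.5%) were higher and 13 (32.5%) lower, with sums of 463 to 476 CPM and 629 to 730.4 CPM. Neurotransmitter-gated channels, found in nerve and muscle, were higher in 19 of 32 models (59.4%) and lower in 1 (3.12%), with sums of 225 to 557 CPM and 187 to 283 CPM. Of 3 models with dynein heavy chain entries, listed for the sperm tail, 2 were higher. These entries do not tell dyneins of sperm from those of other cells. The same models are also among the 66 for microtubules and their motors. No (0) model of these 5 lists was at 0 in every library. The part of these tissues in the differences of the muscle and actin models was not tested.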

How the data were processed

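The authors deposited unscaled counts for each gene model and library, made in CLC Genomics Workbench 10.0.1 from read pairs with a single best place on the Pcitri.v1 genome. Log2 CPM values, also deposited by the authors, were only compared with log2 CPM computed here and differed over the members by a median of 0.192. The authors' table of fold changes and p-values served for its InterPro entries alone. The submitters' processing notes name limma 3.34.9, edgeR 3.20.9, R 3.4.2 and FastQC. The use of strand in the counts is not given in the sources used, so overlapping and antisense genes are uncertain.

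After filterByExpr and TMM scaling, 21179 genes were tested by edgeR 4.0.16 (R 4.3.3) with glmQLFit and glmQLFTest and condition as the sole term, with Benjamini-Hochberg adjustment over all of them and calls at an adjusted p under 0.05. The standard error is the log2 fold change divided by the square root of F, and intervals are 95%. Levels are TMM-scaled CPM. Gene lengths were not used, so levels of different genes are not compared per molecule. Alternatives were other scalings, other filters, leaving out each library, DESeq2 1.42.0 and limma 3.58.1.

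The members and lists were chosen with earlier results of these data known, and list patterns were corrected after seeing which descriptions they matched. Named were all troponin and tropomyosin models, g30236, g27039, g3282 and g12221, and in each other group the 4 with the highest mean CPM and up to 4 called with the largest log2 fold change each way among those whose mean log2 CPM was 0 or more. Up to 2 called models each way of every other list, and neighbours within 5 gene numbers, could be named too. No sequence was matched to these gene models.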

Additional observations from a re-analysis of the deposited data

Results flagged for a closer look

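A library was marked as far where its gap to the nearest library of its group, divided by the range of the 4, exceeded Dixon's 95% critical value for 4 samples. By this rule virgin replicate 2 was far from the other virgin libraries in 7 of the named members. It was low in 6 of them, with g3282 at 2270.4 CPM (4901 to 5396 in the other virgin libraries), g12221 at 2182 CPM (4725 to 4902), g5085 at 450.4 CPM (883 to 944), g4189 at 180.3 CPM (387 to 429.9), g11632 at 169 CPM (345 to 362) and g35930 at 121 CPM (324 to 361). It was high in g1470, at 76.9 CPM (69.6 to 70.1). In g30354, the model with a class I myosin tail homology entry, virgin replicate 5 was the far library, at 234 CPM (155 to 165). These are 8 of 68 groups of 4 libraries examined, of which chance alone would mark about 1 in 20. The members share the libraries, so the groups are not independent.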

How the results depend on the processing

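No paired analysis was possible because virgin libraries are numbered 2, 3, 5 and 6 and mated libraries 8, 9, 10 and 11. Of the 34 named members, 20 kept their direction and call in all 16 alternatives and 14 changed in at least 1. The numbers of members higher and lower were 20 and 7, and remained within 1.5 times of these in the alternatives run, apart from limma voom with sample quality weights, which called 11 lower. The fit with quality weights also called 6877 of all 21179 genes tested lower, against 4514 in the main comparison. That fit gave virgin replicate 2 a weight of 0.1545, and the other libraries 0.586 to 2.42. Members chosen by the 5 InterPro entries alone gave 18 higher and 7 lower. Leaving out each library in turn gave 15 to 21 higher and 5 to 10 lower. Over all genes tested these fits gave 4217 to 6891 higher and 3438 to 6724 lower, against 5595 and 4514 with all libraries. The scalings moved the median log2 fold change of all genes by at most 0.081 in size.

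Directions reversed only in models without a call in the main comparison. With upper-quartile factors g21759 was at -0.01 and g13479 at -0.03, and with limma voom g13479 was at -0.01. Over the fits without 1 library, g21759 ranged from -0.03 to 0.15, g30354 from -0.23 to 0.01, g11743 from -0.03 to 0.22 and g13479 from -0.07 to 0.23. With upper-quartile factors g24975 and g11742 were not called, nor were they with no filter on low counts, and g11742 was not called by limma voom. DESeq2, upper-quartile factors and the quality weights called g1468 lower, and scaling by library size alone lost the call of g18443.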
